A study of Homo sapiens with 6 samples.

Results

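Transcript levels of 10 non-fibrillar collagen genes outside type IV, COL6A1, COL6A2, COL6A3, COL7A1, COL8A1, COL12A1, COL13A1, COL14A1, COL16A1 and COL18A1, were examined in LX-2 cells, an established human hepatic stellate cell line. The genes were given by symbol and family, with earlier results of these data known, and all 10 were among the 60748 genes of the deposited table. RNA sequencing was performed on 3 libraries of cells with the vector alone (LX-2Vector) and 3 libraries of cells stably overexpressing fibroblast activation protein α, a membrane serine protease (LX-2FAP), all cultured for 24 hours. Per the study's methods, the protease was delivered by a lentivirus whose vector also carries EGFP and a puromycin resistance gene, and stable clones were selected with puromycin, so the groups are derivatives of a single line and may also differ as clones. The labels do not say whether the 3 libraries of a group came from separate cultures, so the p-values measure only the spread between these libraries.

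Collagens are proteins of 3 chains wound into a triple helix. The fibrillar types assemble into banded fibrils, whereas the collagens described here have interrupted helices and form other structures. Collagen VI forms beaded filaments around cells, collagen VII forms the anchoring fibrils beneath epithelia, and collagen VIII forms a network known from vessel walls. Collagens XII, XIV and XVI associate with the surface of fibrils or with other matrix networks, collagen XIII spans the cell membrane, and collagen XVIII is a basement membrane proteoglycan whose C-terminal end is endostatin, an inhibitor of angiogenesis. In the liver, hepatic stellate cells are a main source of interstitial collagen during fibrosis.

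Total counts ran from 17355700 to 26352060 per library. FAP, the overexpressed gene, had 49, 42 and 55 counts in LX-2Vector and 14864, 15160 and 14805 counts in LX-2FAP (log2 fold change 8.33, edgeR). Of the stellate cell markers, VIM, TIMP1, SPARC and COL1A1 each had at least 3344 counts in every library, whereas DES had at most 1 count and LRAT had 0. PDGFRB had 310 to 702 counts, RELN 66 to 144, ACTA2 49 to 91 and THY1 22 to 45. Summed CPM (counts-per-million) of the 10 stellate markers were 2279 to 2401 in LX-2Vector and 2287 to 2417 in LX-2FAP, most of it VIM. Sums of CPM over marker lists were scaled to total counts alone, whereas CPM of single genes were normalised further. Single markers were called in both directions, with VIM called higher (log2 fold change 0.13, adjusted p = 0.0372, edgeR) and PDGFRB (-0.38, adjusted p = 0.0269) and COL1A1 (-0.40, adjusted p = 0.0135) called lower. ACTA2 (-0.36, adjusted p = 0.145), THY1 (-0.44, adjusted p = 0.2) and SPARC (-0.13, adjusted p = 0.102) did not pass. Neither did RELN (0.57, adjusted p = 0.0658) and TIMP1 (0.07, adjusted p = 0.31), which went the other way. Of 8 tested stellate markers, 4 were lower and 2 higher without overlap of the groups, beside 2446 and 2372 of 18275 tested genes. Markers of other cells were low in both groups, though SERPINA1 and the leukocyte marker PTPRC had more counts than the stellate markers ACTA2 and THY1. Summed CPM in LX-2Vector and LX-2FAP were 12.9 to 14.8 and 10.3 to 11.5 for 4 hepatocyte markers, most of it SERPINA1, with TTR at 0. The corresponding ranges were 6.51 to 8.12 and 4.94 to 6.41 for 3 endothelial markers, 0.712 to 1.27 and 0.768 to 0.909 for 3 epithelial markers, and 9.41 to 12.1 and 9.18 to 10.4 for 3 leukocyte markers. Endothelial and hepatocyte sums, at this scaling, and the markers PDGFRB and COL1A1 were thus lower in LX-2FAP, as were several collagens below. VIM was called higher, and the summed CPM of stellate, epithelial and leukocyte markers overlapped between the groups. The nearest endothelial sums, 6.51 and 6.41, lay close together, and no further normalisation was applied to them. VWF was called lower (-1.06, adjusted p = 0.0268, edgeR), while PECAM1 was not called (0.05, adjusted p = 0.878). The part of these markers in the collagen results was not tested.

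The 3 collagen VI genes, COL12A1 and COL8A1 were the most abundant of these collagens. Levels were compared between genes as FPKM, in which the count is scaled to gene length and to library depth. In LX-2Vector, COL6A1 stood at 20.4 ± 1.97 FPKM and COL6A2 at 19.9 ± 1.26 FPKM (SD, n = 3). COL12A1 followed at 11.6 ± 0.693 FPKM, COL6A3 at 8.64 ± 1.06 FPKM, COL8A1 at 6.78 ± 0.203 FPKM and COL18A1 at 3.93 ± 0.247 FPKM. COL7A1, COL13A1 and COL16A1 lay close together, at 1.14 ± 0.154, 1.13 ± 0.0923 and 1.12 ± 0.0505 FPKM. The LX-2Vector ranges of COL6A1 and COL6A2 overlapped, as did those of COL7A1 and COL13A1 and of COL13A1 and COL16A1, so these neighbours were not separated by their spread. The order depends on the gene length used. For COL13A1 the deposited values implied 11509 bases against 5888 bases of merged exon in GENCODE release 29, and with the latter its level in LX-2Vector was 2.22 FPKM, above COL7A1. For COL12A1 the lengths were 18860 and 12481 bases, and its level in LX-2Vector rose to 17.5 FPKM with no change of rank. In LX-2FAP the GENCODE lengths put COL12A1 at 15.4 FPKM, above COL6A2 at 14.8 FPKM.

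COL14A1 was barely detected in LX-2 cells. It had 1 count in LX-2Vector replicate 3 and 0 counts in the other libraries, and a count of 0 allows up to 3 counts, or 0.114 to 0.173 CPM at these depths. COL14A1 did not pass the filter on low counts and was not tested, so 9 of the 10 genes are compared from here on.

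**Figure D1:**
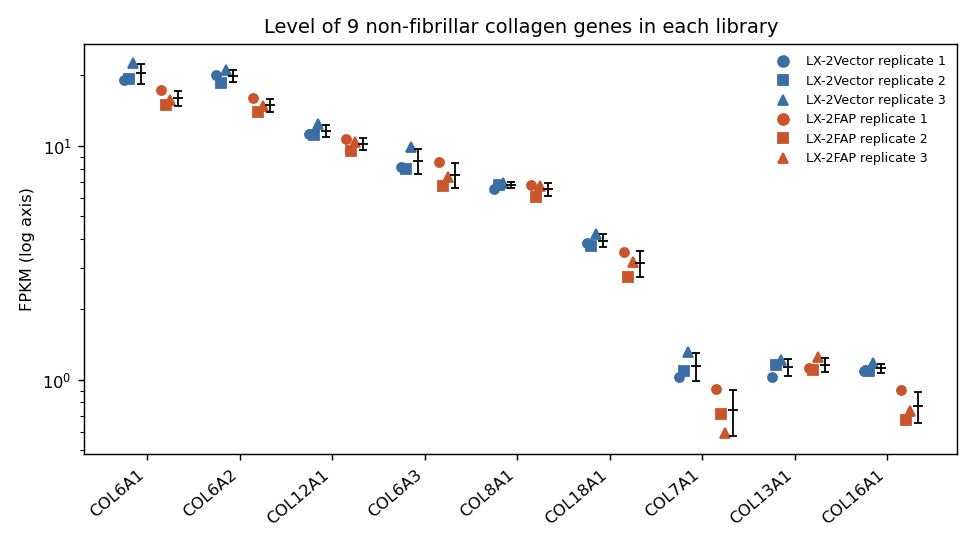
Level of the 9 tested genes in FPKM on a log axis, with 1 point per library, LX-2Vector in blue and LX-2FAP in red. Black bars are the mean ± SD of 3 libraries. COL6A1 and COL6A2 were the highest at 20.4 and 19.9 FPKM in LX-2Vector, and COL7A1, COL13A1 and COL16A1 the lowest, near 1.1 FPKM.

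COL6A1, COL6A2 and COL18A1 lie on the same strand of chromosome 21 (GRCh38), at chr21:45981737-46005050, chr21:46098097-46132849 and chr21:45405137-45513720. The end of COL6A1 is 93046 bases from the start of COL6A2. The other genes lie apart, COL7A1 at chr3:48564073-48595267, COL8A1 at chr3:99638475-99799226, COL12A1 at chr6:75084326-75206051, COL16A1 at chr1:31652247-31704319, COL13A1 at chr10:69801867-69964275 and COL6A3 at chr2:237324003-237414375. Of the exon bases of COL18A1, 16.4% are shared with SLC19A1 on the other strand, and the use of strand in counting was not stated, so its count is uncertain. COL16A1 shares 1.26% of its exon bases with an antisense gene and COL7A1 shares 0.325% with MIR711.

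Upstream sequences of COL6A2 and COL7A1, both lower in LX-2FAP as given below, are shown beside that of COL12A1, which was not called. They are from RefSeq (GRCh38.p14), are written 5′ to 3′ on the strand of the gene and cover at most 250 bases before its start, leaving out annotated exon bases. Capitals mark GGGCGG (a GC box), TATAAA and CCAAT on either strand. The COL6A2 window is chr21:46097862-46098096 (plus strand), the COL7A1 window chr3:48595330-48595579 (minus strand) and the COL12A1 window chr6:75206054-75206303 (minus strand).
COL6A2: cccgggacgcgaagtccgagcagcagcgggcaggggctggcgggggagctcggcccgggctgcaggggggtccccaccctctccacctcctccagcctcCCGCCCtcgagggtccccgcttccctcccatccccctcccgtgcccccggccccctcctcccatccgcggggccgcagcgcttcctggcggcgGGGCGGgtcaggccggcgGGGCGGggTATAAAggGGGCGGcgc
COL7A1: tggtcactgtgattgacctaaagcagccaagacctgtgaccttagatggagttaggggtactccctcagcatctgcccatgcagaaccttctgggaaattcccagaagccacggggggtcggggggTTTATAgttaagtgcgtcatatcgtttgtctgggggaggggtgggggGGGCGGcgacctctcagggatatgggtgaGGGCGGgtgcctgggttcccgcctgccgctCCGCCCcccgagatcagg
COL12A1: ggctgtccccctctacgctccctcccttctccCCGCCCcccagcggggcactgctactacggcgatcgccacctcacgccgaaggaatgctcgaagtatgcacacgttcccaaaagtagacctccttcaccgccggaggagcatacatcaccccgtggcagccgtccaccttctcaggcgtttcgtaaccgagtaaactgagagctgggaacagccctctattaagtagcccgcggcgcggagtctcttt
The COL6A2 window held 4 GC boxes and 1 TATAAA, the COL7A1 window 3 GC boxes and 1 TATAAA, and the COL12A1 window 1 GC box. No CCAAT was in any of them, and no 2 matches overlapped. The COL6A2 window is 235 bases long because the remaining bases are annotated exon. Among entries not shown, COL18A1, which was not called, held 9 GC boxes outside exons in 1 entry and 1 TATAAA in another. COL13A1, also not called, held 1 TATAAA. COL16A1, called lower, held 2 GC boxes and no TATAAA over 250 bases, all of them annotated exon. The matches thus did not divide the called genes from the others. Of 35116 RefSeq promoters, 42.6% held a GC box, 10.7% held TATAAA and 32.0% held CCAAT over 250 bases. A GC box or CCAAT match is thus common and TATAAA less so, and any match describes the letters only.

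To examine whether these collagens differed between LX-2FAP and LX-2Vector, counts of all genes were tested with edgeR, and p-values were adjusted over the 18275 genes tested. At an adjusted p under 0.05, 4 of the 9 tested collagens were called, COL6A1, COL6A2, COL7A1 and COL16A1, and all 4 were lower in LX-2FAP. In such bulk libraries, fewer cells with a transcript and less of it per cell cannot be told apart. Over all tested genes 5.29% were called in either direction and 2.73% were called lower. The log2 fold change was below 0 for 8 of the 9 collagens, with a median of -0.28 beside -0.01 over all tested genes. In 6 of the 9 (COL6A1, COL6A2, COL7A1, COL12A1, COL16A1 and COL18A1), every LX-2FAP library lay below every LX-2Vector library, beside 13.4% of all tested genes. A fold change over 1.2 with an unadjusted p under 0.05 was met by 5 collagens, the 4 called and COL18A1, beside 6.44% of all tested genes lower by that rule. At an adjusted p under 0.01 COL6A2 alone remained, beside 0.339% of all tested genes lower. With limma on log2(FPKM + 1), which called 2 genes of the whole table, none of the collagens was called, 6 of them had an unadjusted p under 0.05 beside 20% of all genes, and COL6A2 had an adjusted p of 0.112.

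**Figure D2:**
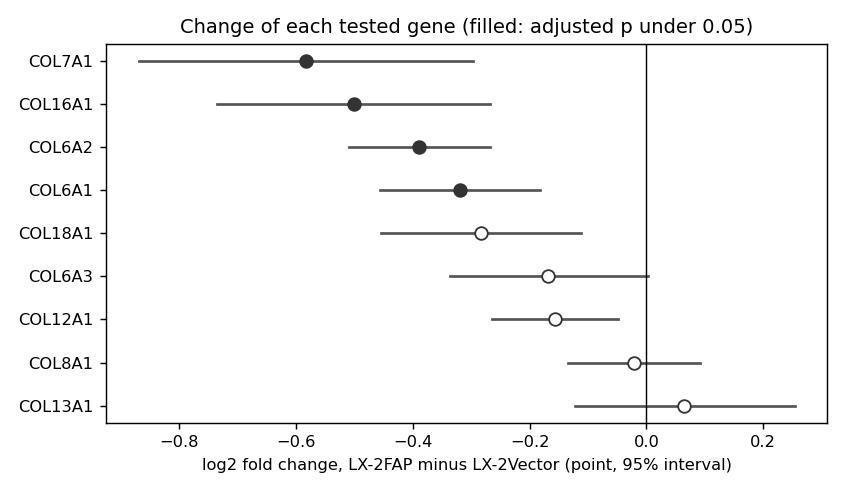
Log2 fold change of the 9 tested collagens, LX-2FAP minus LX-2Vector, from edgeR. Points are estimates, lines are 95% intervals and filled points have an adjusted p under 0.05. COL7A1 at -0.58, COL16A1 at -0.50, COL6A2 at -0.39 and COL6A1 at -0.32 are filled, and the intervals of COL6A3, COL8A1 and COL13A1 include 0.

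COL6A2 was lower in LX-2FAP and had the smallest adjusted p of the 9 collagens. It encodes the α2 chain, which is short like α1 and joins α1 and a long chain in each monomer. COL6A2 stood at 107, 97.8 and 111 CPM in LX-2Vector replicates 1, 2 and 3 and at 86.2, 75.7 and 79.6 CPM in LX-2FAP replicates 1, 2 and 3. The groups did not overlap, and LX-2FAP replicate 2 was the lowest library. The level fell by 0.39 on the log2 scale (SE 0.057, 95% interval -0.51 to -0.27, adjusted p = 0.00386, edgeR), or 23.6% lower. COL6A2 was called with any 1 library left out, with adjusted p from 0.00034 without LX-2FAP replicate 1 to 0.0463 without LX-2FAP replicate 3.

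COL6A1, which encodes the α1 chain, was also lower. Its levels were 106, 106 and 124 CPM in LX-2Vector and 97.1, 84.2 and 87.7 CPM in LX-2FAP. LX-2Vector replicate 3 was the highest, and the groups did not overlap. Its log2 fold change was -0.32 (SE 0.065, 95% interval -0.46 to -0.18, adjusted p = 0.0144, edgeR), or 19.8% lower. The call was lost when replicate 2 (adjusted p = 0.0746) or replicate 3 (adjusted p = 0.106) of LX-2FAP was left out.

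COL6A3, which encodes the long α3 chain, was not called. Its levels were 174, 169 and 210 CPM in LX-2Vector and 185, 146 and 161 CPM in LX-2FAP. LX-2FAP replicate 1 lay above LX-2Vector replicates 1 and 2, so the groups overlapped. The log2 fold change was -0.17 (SE 0.08, 95% interval -0.34 to 0.002, adjusted p = 0.232, edgeR). It was -0.06 without LX-2Vector replicate 3 and reached an adjusted p of 0.0351 without LX-2FAP replicate 1 and 0.00992 without a filter on low counts. The other chains that can take the place of α3 were scarce, since COL6A5 had 1 count in all and COL6A6 had 4 to 12 counts per library.

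Ratios between the chain transcripts within each library are given as a description, since they were taken after COL6A1 and COL6A2 were seen to separate and COL6A3 to overlap, and they restate that pattern. The COL6A1 to COL6A3 ratio of FPKM was 2.37, 2.43 and 2.30 in LX-2Vector and 2.04, 2.24 and 2.12 in LX-2FAP. The COL6A2 to COL6A3 ratio was 2.49, 2.33 and 2.13 in LX-2Vector and 1.88, 2.09 and 1.99 in LX-2FAP. Neither ratio overlapped between the groups. The COL6A2 to COL6A1 ratio was 1.05, 0.959 and 0.928 in LX-2Vector and 0.922, 0.932 and 0.942 in LX-2FAP, and overlapped.

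**Figure D3:**
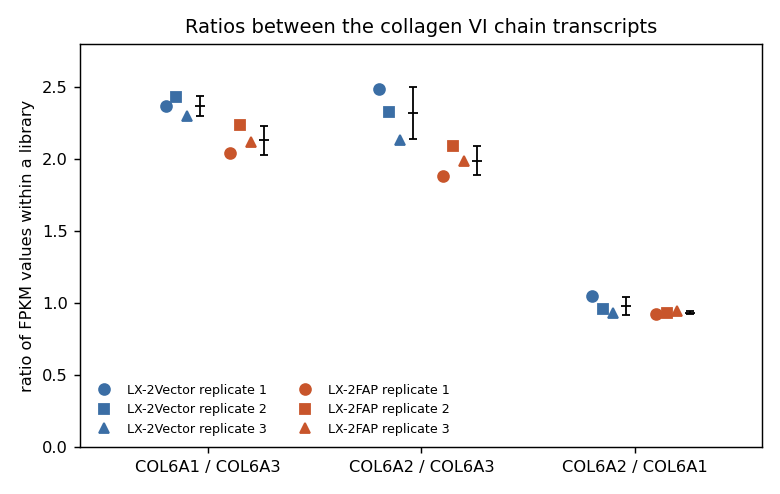
Ratios of FPKM between collagen VI chain transcripts within each library, with LX-2Vector in blue and LX-2FAP in red. Black bars are the mean ± SD of 3 libraries. The COL6A1 to COL6A3 and COL6A2 to COL6A3 ratios are lower in LX-2FAP with no overlap (means 2.37 against 2.13 and 2.32 against 1.99), and the COL6A2 to COL6A1 ratio overlaps.

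COL7A1, which encodes the single chain of collagen VII, had the most negative log2 fold change of the 9. Its levels were 11.4, 12.0 and 14.5 CPM in LX-2Vector and 10.3, 8.06 and 6.68 CPM in LX-2FAP. The groups did not overlap, and here LX-2FAP replicate 3 was the lowest library. Its estimate on the log2 scale was -0.58 (SE 0.135, 95% interval -0.87 to -0.30, adjusted p = 0.0241, edgeR), or 33.3% lower. Counts behind these values ran from 140 to 309. The adjusted p was 0.0813 without LX-2Vector replicate 3, and with replicate 2 or 3 of LX-2FAP left out it was 0.0921 and 0.154, so the call was lost in each case.

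Among the genes of fibril-associated chains, COL16A1 was lower and COL12A1 was not called. COL16A1 stood at 10.1, 9.97 and 10.8 CPM in LX-2Vector and at 8.43, 6.34 and 6.87 CPM in LX-2FAP. LX-2Vector libraries lay close together, and all LX-2FAP libraries were below them. COL16A1 changed by -0.50 on the log2 scale (SE 0.11, 95% interval -0.73 to -0.27, adjusted p = 0.0194, edgeR), or 29.4% lower. Its counts were 114 to 267. Leaving out replicate 1 (adjusted p = 0.0532) or replicate 3 (0.0588) of LX-2Vector ended the call, as did leaving out replicate 2 (0.0944) or replicate 3 (0.128) of LX-2FAP.

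COL12A1, the gene of collagen XII and the one with the most counts here (3276 to 5612), stood at 212, 208 and 232 CPM in LX-2Vector and at 204, 182 and 199 CPM in LX-2FAP. Every LX-2FAP library was below every LX-2Vector library, but LX-2FAP replicate 1 lay close to LX-2Vector replicate 2. The log2 fold change was -0.16 (SE 0.051, 95% interval -0.26 to -0.05, adjusted p = 0.0825, edgeR), which did not pass the threshold. It passed without LX-2FAP replicate 1 (adjusted p = 0.0388), with library size alone as the scaling (0.0457) and without a filter on low counts (0.0165). With any other library left out the adjusted p was 0.094 to 0.33. Leaving out LX-2Vector replicate 3 gave a log2 fold change of -0.10, and leaving out LX-2FAP replicate 2 gave -0.11.

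COL18A1, the source of endostatin, lay just outside the threshold. Its levels were 32.5, 31.3 and 35.3 CPM in LX-2Vector and 30.2, 23.6 and 27.4 CPM in LX-2FAP. The groups did not overlap, with LX-2FAP replicate 1 just under LX-2Vector replicate 2. The log2 fold change was -0.28 (SE 0.081, 95% interval -0.45 to -0.11, adjusted p = 0.0522, edgeR), and the DESeq2 Wald test gave an adjusted p of 0.036. In edgeR the adjusted p was 0.036 with library size alone as the scaling, 0.039 with the replicate block and 0.00258 without a filter on low counts. Without LX-2FAP replicate 1 the adjusted p was 0.00819, and with any other library left out it was 0.0722 to 0.217. SLC19A1, a folate transporter gene whose exons it shares in part, had a log2 fold change of -0.15 (adjusted p = 0.286). COL15A1, the gene most closely related to COL18A1, had 22 to 35 counts and a log2 fold change of -0.11 (adjusted p = 0.837).

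COL8A1 and COL13A1 had the log2 fold changes nearest to 0. COL8A1, the gene of the α1 chain of collagen VIII, stood at 61.5, 63.5 and 64.8 CPM in LX-2Vector and at 64.9, 57.8 and 63.9 CPM in LX-2FAP. LX-2FAP replicate 1 was the highest library and LX-2FAP replicate 2 the lowest, so the LX-2FAP libraries spanned the LX-2Vector range. Its log2 fold change was -0.02 (SE 0.053, 95% interval -0.14 to 0.09, adjusted p = 0.861, edgeR), and its sign turned without LX-2Vector replicate 3 (0.0039) or without LX-2FAP replicate 2 (0.027). The gene of its partner chain, COL8A2, had 3 to 13 counts per library.

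COL13A1, the membrane-spanning collagen, stood at 11.9, 13.2 and 13.8 CPM in LX-2Vector and at 13.02, 12.84 and 14.61 CPM in LX-2FAP. The groups overlapped, and LX-2FAP replicate 3 was the highest library. Its log2 fold change was 0.07 (SE 0.089, 95% interval -0.12 to 0.25, adjusted p = 0.724, edgeR), the only positive estimate among the 9, and it was -0.00042 without LX-2Vector replicate 1. COL13A1 had counts of 231 to 313, close to those of COL7A1 and COL16A1.

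Within a group, the 9 collagens largely shared the order of the libraries. LX-2Vector replicate 3 held the highest CPM of its group for 9 of the 9, beside 33.7% of all tested genes. LX-2FAP replicate 1 held the highest CPM of its group for 8 of the 9, beside 36.2% of all tested genes, with COL13A1 as the exception. LX-2FAP replicate 2 held the lowest for 8 of the 9, beside 35.6% of all tested genes, with COL7A1 as the exception. The first principal component of all genes (36.2% of variance) put the LX-2Vector libraries at -12.04, -11.58 and -20.73, against 1.91, 25.43 and 17.01 for LX-2FAP. LX-2Vector replicate 3 and LX-2FAP replicate 2 were thus the ends of that component, and LX-2FAP replicate 1 lay between LX-2Vector and the other LX-2FAP libraries. The part of this component in the collagen results was not tested.

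**Figure D4:**
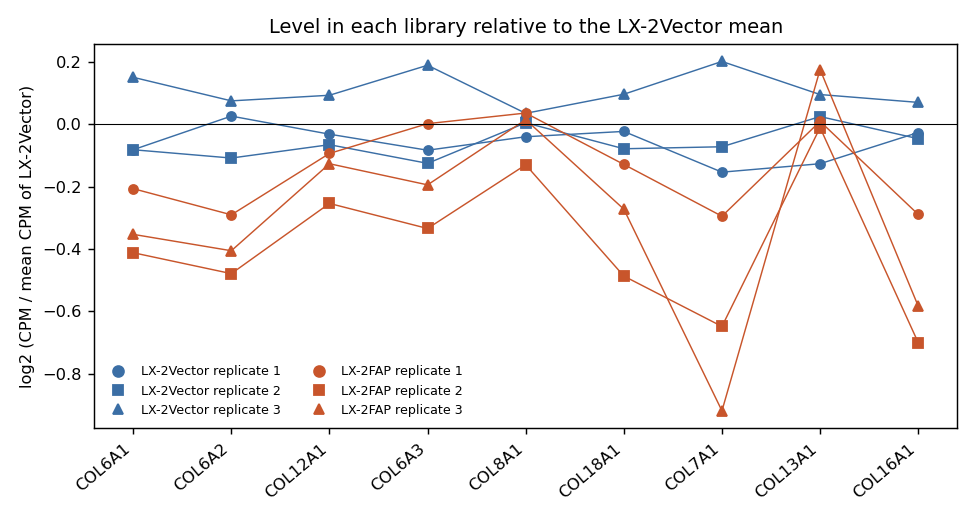
CPM of the 9 tested collagens in each library on a log2 scale, relative to the LX-2Vector mean of the same gene. Lines join the genes of 1 library, with LX-2Vector in blue and LX-2FAP in red. LX-2Vector replicate 3 is the top LX-2Vector line for all 9 genes, and LX-2FAP replicate 1 is the top LX-2FAP line for all but COL13A1.

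The summed level of these collagens did not overlap between the groups, while their share of collagen transcripts did. Summed FPKM of the 10 genes was 72.3, 70.9 and 80.9 in LX-2Vector and 65.9, 56.5 and 60.6 in LX-2FAP. These sums were scaled to total counts alone, without further normalisation, and were not tested. As a percent of the summed FPKM of 44 collagen genes they made up 41.8%, 41.7% and 41.5% in LX-2Vector and 41.7%, 43.1% and 42.5% in LX-2FAP, with overlap. The collagen VI chains made up 27.0% to 27.5% in LX-2Vector and 26.5% to 27.2% in LX-2FAP. The remaining collagens were mostly fibrillar chains, with 41.6% to 43.6% and 37.5% to 41.3%, and type IV chains, with 13.8% to 15.5% and 15.6% to 18.1%.

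Collagen genes outside the set are given for comparison. The counts called in these lists and those below stand beside 5.29% of all tested genes called and 2.73% called lower. Of 9 tested fibrillar chains, 4 were called, all lower, with a median log2 fold change of -0.40. COL3A1 (log2 fold change -0.69, adjusted p = 0.00765), COL5A1 (-0.52, adjusted p = 0.0293), COL1A1 (-0.40, adjusted p = 0.0135) and COL5A2 (-0.26, adjusted p = 0.0418) encode chains of the types III, V, I and V. With the DESeq2 Wald test COL1A1 (adjusted p = 0.0502), COL5A1 (0.162) and COL5A2 (0.146) were not called. Of 6 tested type IV chains none was called, with a median of -0.10, and of 4 other non-fibrillar chains tested none was called, with a median of -0.20. No difference between these lists and the 9 collagens was tested.

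Among receptors of these collagens, genes were called in both directions. Of 12 tested receptor genes, 2 were higher and 2 lower, with a median log2 fold change of -0.07. ITGA2, a collagen-binding integrin subunit, stood at 301, 339 and 344 CPM in LX-2Vector and 399, 379 and 410 CPM in LX-2FAP, a log2 fold change of 0.27 (SE 0.05, adjusted p = 0.00957). All LX-2FAP libraries lay above all LX-2Vector libraries. ANTXR2, an endocytic receptor for collagen VI, was also higher (log2 fold change 0.14, adjusted p = 0.0396), but not with library size alone as the scaling (adjusted p = 0.0895). DDR1, a receptor tyrosine kinase activated by collagen, was lower (-0.31, adjusted p = 0.0191), as was GPC1, a cell surface heparan sulfate proteoglycan (-0.20, adjusted p = 0.0445).

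Of 14 tested matrix partners, 6 were lower and 1 was higher, with a median of -0.25. HSPG2, which encodes the basement membrane proteoglycan perlecan, stood at 71.0, 61.0 and 67.8 CPM in LX-2Vector and 53.2, 45.3 and 46.5 CPM in LX-2FAP, a log2 fold change of -0.46 (SE 0.067, adjusted p = 0.00386). All LX-2FAP libraries were below all LX-2Vector libraries, although 11.7% of its exon bases are shared with other genes. LAMA3, which encodes a laminin α chain of epithelial basement membranes, was lower (log2 fold change -0.38, adjusted p = 0.00761). NID1, which encodes the basement membrane linker nidogen, was also lower (-0.22, adjusted p = 0.018), and the other genes of this list called lower were TNXB (tenascin X), NID2 (a second nidogen, with 30.0% of its exon bases shared with other genes) and FN1 (fibronectin).

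Of 16 tested genes of the machinery that folds and exports collagen chains, 1 was called, near the share of 5.29% over all tested genes. That gene was PLOD1, a lysyl hydroxylase (log2 fold change -0.19, adjusted p = 0.0492), and the median of the list was -0.09. Among 10 tested genes of extracellular processing, 4 were lower and none was called higher, with a median of -0.27. MMP2, a matrix metalloproteinase, stood at 26.4, 27.1 and 31.8 CPM in LX-2Vector and 19.4, 14.4 and 16.1 CPM in LX-2FAP, a log2 fold change of -0.76 (SE 0.098, adjusted p = 0.00185). The groups did not overlap. BMP1 (-0.35, adjusted p = 0.0117) and ADAMTS14 (-0.87, adjusted p = 0.0268) encode proteinases that remove procollagen ends, and PCOLCE (-0.55, adjusted p = 0.0144) encodes an enhancer of BMP1. Of their exon bases, PCOLCE shares 16.6% and BMP1 6.4% with other genes.

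Of the 17 called genes that the naming rule took from these lists, HSPG2 and MMP2 were called with any 1 library left out. Without LX-2FAP replicate 3 the other 15 lost the call (adjusted p 0.0693 to 0.282), and without LX-2FAP replicate 2 a total of 11 lost it (0.0541 to 0.197). Without LX-2Vector replicate 1, 2 or 3, 11, 15 and 10 of the 17 were called, with adjusted p of 0.0543 to 0.141, 0.0742 to 0.079 and 0.0544 to 0.157 for those lost. Without LX-2FAP replicate 1 all 17 were called.

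**Figure D5:**
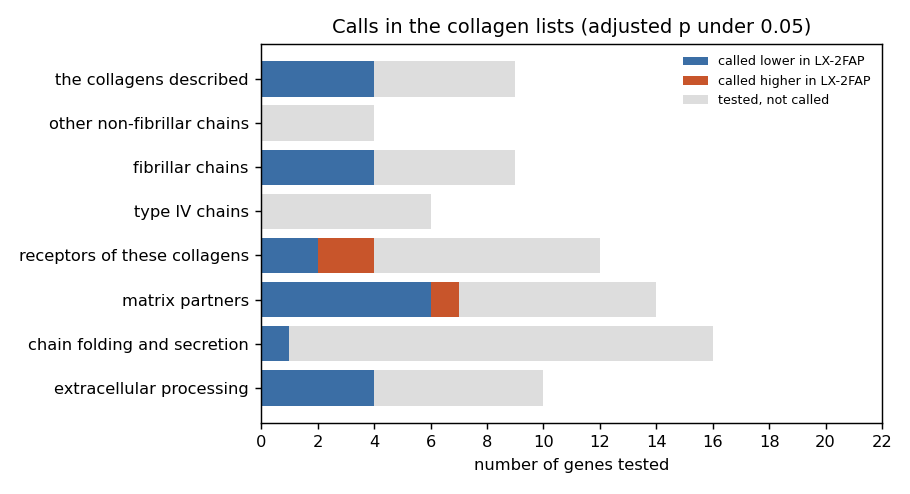
Number of tested genes in each list of collagen chains and collagen-related genes, divided into genes called lower in LX-2FAP (blue), called higher (red) and not called (grey) at an adjusted p under 0.05. The top bar is the collagens described here, with 4 of 9 called lower. Receptors and matrix partners are the lists with genes called higher, 2 and 1.

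Since COL18A1, COL6A1 and COL6A2 lie near each other, the genes between them were examined, a window chosen after the values were seen. The window from COL18A1 to COL6A2 holds 19 genes, of which 6 were tested. Besides the collagens and SLC19A1, these were PCBP3 (log2 fold change -0.52, adjusted p = 0.126) and AJ239328.1 (-0.65, adjusted p = 0.282), and neither was called. On chromosome 21 as a whole 7 of 200 tested genes were called lower, or 3.5%, beside 2.73% of all tested genes. These 7 include COL6A1 and COL6A2. On the same chromosome 5 genes were called higher, and the median log2 fold change was -0.03.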

How the data were processed

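Per the study's methods, reads were aligned with Hisat2 (2.0.5) and counted per gene with FeatureCounts (1.5.0-p3). The labels describe removal of ribosomal RNA and the methods also name poly(A) isolation. The authors deposited whole-number counts, not normalized, and FPKM values computed from count and gene length. The submitters' processing notes name hg18, but 58337 of 60605 Ensembl identifiers matched GENCODE release 29 (GRCh38), the source of the coordinates given here. Of the matched genes with a count, 60.7% had an implied length equal to the merged exons of that release. The percents of shared exon bases describe that release, which may not be the one used in counting. Use of strand was not given in the sources used here.

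Groups were taken from the sample titles. The quasi-likelihood test of edgeR (4.0.16) was run on the counts without covariate, using TMM scaling and the filterByExpr defaults (minimum count 10, minimum total 15). Tests were 2-sided, with Benjamini-Hochberg adjustment over all tested genes and a threshold of 0.05. CPM were TMM-normalised. Standard errors were derived from the test statistic. On simulated counts the share of false calls was above the threshold, and most changes of the smallest size were missed. Replicates were not copies of each other (chi-square over its degrees of freedom was 2.06 to 5.02). Alternatives used limma 3.58.1 and DESeq2 1.42.0.

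The collagens and all gene lists were chosen with earlier results of these data known. From each list, every called gene was named with its values, or the 4 with the smallest p where more were called, and 1 such gene is not reported here. COL6A5, COL6A6, COL8A2, COL15A1, COL1A2, SLC19A1, PCBP3 and AJ239328.1 were added after their values were seen. For promoters, 8 RefSeq entries matched 7 of the 10 genes.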

Additional observations from a re-analysis of the deposited data

How the results depend on the processing

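The edgeR test called 967 genes, 4 of the collagens and 20 genes of the other lists. Limma on log2(FPKM + 1) and on log2(FPKM + 0.1) called 2 and 2 genes in all, 0 and 0 of the collagens, of which 6 had an unadjusted p under 0.05 in each, and 0 and 0 list genes. Without a filter on low counts, 1606 genes and 7 collagens were called, and at an adjusted p under 0.01, 116 genes and 1 collagen. With 1 library left out at a time, 26 to 1949 genes, 1 to 7 collagens and 2 to 24 list genes were called, fewest without LX-2FAP replicate 3 and most without LX-2FAP replicate 1. COL6A2 alone remained called without LX-2FAP replicate 2 or 3, and COL6A1 and COL6A2 without LX-2Vector replicate 3. Log2 fold changes of COL8A1 ran from -0.052 to 0.027 (without LX-2FAP replicate 2) and turned positive without LX-2Vector replicate 3 too, at 0.0039, and those of COL13A1 from -0.00042 (without LX-2Vector replicate 1) to 0.126. DESeq2 size factors called 4 collagens, at least 10 counts in every library 4, the DESeq2 Wald test 5 (with 17 list genes) and library size alone 6. Library size alone called 809 of 1048 genes lower, beside 498 of 967, and moved the median of all genes from -0.013 to -0.041. The cause of these changes was not tested. Same-numbered libraries did not deviate together (correlations -0.039, 0.044 and -0.01), so no pairing by number was seen. The labels do not say whether libraries were prepared in pairs, and these correlations cannot settle it. The replicate block called 975 genes, 5 collagens with COL18A1 added, and 20 list genes, and not every library correlated best with its own number. COL14A1 had too few counts to test, and COL7A1, COL13A1 and COL16A1 had 114 to 313.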

Other observations

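The 2 genes of type I collagen differed widely in level in these cells, which was noticed after the values were seen. COL1A1, the gene of the α1 chain, stood at 34.3 ± 3.05 FPKM in LX-2Vector and 25.5 ± 3.67 FPKM in LX-2FAP (SD, n = 3), above all 10 of the collagens described in the report. COL1A2, the gene of the α2 chain that normally joins a pair of α1 chains, stood at 0.109 ± 0.02 FPKM in LX-2Vector and 0.0964 ± 0.0358 FPKM in LX-2FAP, with 13 to 33 counts per library, and was not called (log2 fold change -0.13, adjusted p = 0.833, edgeR). VWF, an endothelial marker, had 74, 31 and 60 counts in LX-2Vector and 35, 12 and 29 counts in LX-2FAP (log2 fold change -1.06, adjusted p = 0.0268, edgeR), while PECAM1 had 75 to 104 counts and CDH5 had 3 to 10 counts over the 6 libraries.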
